A study of Mus musculus with 19 samples.

Results

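Collagen chains are the subunits of the collagens, the triple-helical proteins that make up most of the extracellular matrix. They were taken as every gene of the deposited table whose name consists of Col, a number, a and a number, which gave 39 of 19716 genes. Of these, 11 encode fibrillar chains, 6 chains of basement membrane type IV collagen, 3 chains of short network-forming collagens, 7 FACIT chains (fibril-associated collagens with interrupted triple helices) and 6 chains of type VI collagen, which forms beaded filaments. The remaining 6 are the chain of the anchoring fibrils (Col7a1), 2 multiplexins, 2 transmembrane chains and Col28a1. The chains Col9a1, Col9a2, Col13a1, Col25a1 and Col26a1 were not analysed here.

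RNA was sequenced from mouse embryonic fibroblasts in which Sec24d is knocked out, so every group, controls included, carries this knockout. Of the 19 libraries, 4 came from cells given 50 nM scrambled siRNA, 5 from cells given siRNA against Sec24b (Sec24B knockdown), 5 from cells given 150 nM scrambled siRNA and 5 from cells given a mixture of Sec24a, Sec24b and Sec24c siRNAs (triple knockdown). All are labelled 48 h. For the SEC24 siRNAs 50 nM is labelled, and not whether each or in total. The labels do not say how the knockout line was derived or whether it is 1 clone, and they do not say whether replicates were separate cultures, so p-values measure the spread between these libraries, which may be technical.

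Secretory proteins leave the endoplasmic reticulum in carriers shaped by the COPII coat, whose SEC24 subunits bind the cargo. Procollagen is among the bulkiest cargoes that depend on this coat. Its chains are hydroxylated before export, fold into a triple helix from repeated glycine-X-Y triplets, and are trimmed and cross-linked after secretion. Fibroblasts in culture make mainly type I collagen, with smaller amounts of types III, V and VI. The comparisons ask how the transcripts of these chains differ when SEC24 paralogs are depleted in these knockout cells, and how fibrillar chains compare with the other classes. In bulk RNA, fewer cells that express a chain and less RNA per cell cannot be told apart.

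The libraries held 9101855 to 19709672 reads each. The transcripts the siRNAs target were lower: Sec24b stood at 1046 to 1217 normalised counts in the 50 nM scrambled libraries and at 454 to 498 in the Sec24B knockdown. In the triple knockdown Sec24a, Sec24b and Sec24c stood at 299 to 583, 369 to 606 and 752 to 858, against 732 to 888, 1159 to 1256 and 2705 to 2951 in the 150 nM scrambled libraries. Reads of Sec24d were still counted in every library (353 to 524 in Sec24B knockdown, 223 to 563 in triple knockdown), and the part of the gene that was deleted is not given in the sources used here. The triple knockdown libraries 1 and 5 stood apart from their group: pairs with either of them differed by 15.8 to 45.8 in chi-square per gene, against 2.54 to 3.27 among libraries 2, 3 and 4. In libraries 1 and 5 Sec24a stood at 299 and 403, against 572 to 583 in libraries 2, 3 and 4. Sec24b stood at 369 and 436 there, against 531 to 606, and Sec24c at 775 and 752, against 829 to 858. The deviations of libraries 1 and 5 from the mean of the other libraries of their group fell with transcript length (Spearman's rho across 10427 genes -0.593 and -0.380). Such a trend was also present in Sec24B library 1 (-0.540), 50 nM scrambled library 4 (-0.419) and 150 nM scrambled library 2 (-0.269). Pairs with 50 nM scrambled library 4 differed by 8.001 to 9.465 in chi-square per gene, against 2.087 to 3.48 among the other 50 nM libraries. The fibroblast markers Vim, Fn1 and Pdgfrb averaged 62696, 141772 and 3109 normalised counts in the 50 nM scrambled group, and Thy1 had no value. The 9 of 10 fibroblast markers measured summed to 205227 to 228160 with 50 nM scrambled siRNA, 166209 to 202769 in the Sec24B knockdown, 227752 to 268199 at the higher scrambled dose and 155648 to 207378 after triple knockdown, and the part of this shift in the collagen values was not tested. This sum is mostly Fn1 and Vim, and other members followed it only in part. Dcn averaged 1302 with 50 nM scrambled siRNA and 2301 in the Sec24B knockdown. It averaged 494 at the higher scrambled dose and 656 after triple knockdown, so it was higher in both knockdowns. Pdgfra averaged 169, 186, 142 and 134, and S100a4 576, 706, 461 and 383, in the same order, higher only in the Sec24B knockdown. Prrx1 averaged 6310, 6387, 5037 and 2970, and Twist1 750, 751, 784 and 745. Pdgfrb, at 3109, 2637, 2614 and 1664, was lower in both knockdowns, as the sum was. Endothelial, epithelial and neural markers summed to at most 80.2 in any library, with the epithelial Cldn4 listed at 0 in the whole Sec24B knockdown group. Across libraries the 3 of 8 chondrocyte markers measured summed to 269 to 505, and the 4 of 5 adipocyte markers to 236 to 357. The 3 of 6 blood and immune markers measured summed to 59.8 to 92.1 with 50 nM scrambled siRNA, 56.6 to 73.8 in the Sec24B knockdown, 124 to 157 at the higher scrambled dose and 57.3 to 78.8 after triple knockdown. The high sums were mostly Cd68, and Ptprc, Adgre1 and Itgam had no value. The muscle marker Des, 1 of 6 measured, stood at 112 to 174, 228 to 272, 163 to 234 and 215 to 294 in the same order. The part of these shifts in the collagen values was not tested.

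The triple helix is written in the exons of these genes, and the sequences below are shown to make its repeat visible in chains of different classes. In fibrillar collagen genes the helix is coded by small exons of 54 bases, or multiples of 9, each starting with a glycine codon. For 6 chains on which the results turn, an exon of 54 bases from the longest uninterrupted run of glycine-X-Y triplets is given from the GENCODE M21 transcripts (GRCm38), 5′ to 3′ on the coding strand, with glycine codons in capitals. Each holds 18 codons, of which 6 encode glycine, or 7 in Col1a1.

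Col1a1, chr11:94939904-94939957, plus strand: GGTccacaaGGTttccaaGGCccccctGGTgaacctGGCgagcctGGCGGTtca

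Col1a2, chr6:4515481-4515534, plus strand: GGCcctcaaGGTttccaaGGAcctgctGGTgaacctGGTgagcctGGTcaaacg

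Col3a1, chr1:45325360-45325413, plus strand: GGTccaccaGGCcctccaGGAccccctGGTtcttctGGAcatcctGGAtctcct

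Col4a1, chr8:11245211-11245264, minus strand: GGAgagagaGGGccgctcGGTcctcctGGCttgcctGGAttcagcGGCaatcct

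Col6a1, chr10:76719623-76719676, minus strand: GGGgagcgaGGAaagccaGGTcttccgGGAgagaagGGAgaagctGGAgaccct

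Col12a1, chr9:79612916-79612969, minus strand: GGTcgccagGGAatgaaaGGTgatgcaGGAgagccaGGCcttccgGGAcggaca

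The repeat is the same in all 6, and what differs is how long it runs without a break. In the longest annotated coding sequence of each gene, the longest run spanned 216 to 344 triplets in the 11 fibrillar chains. It spanned 39 to 66 in the type IV chains, 60 to 61 in the network-forming chains, 37 to 87 in the type VI chains and 32 to 113 in the FACIT chains. Exons of 54 bases made up 305 of 649 coding exons (47.0%) in fibrillar genes, 81 of 362 (22.4%) in FACIT genes, 17 of 217 (7.83%) in type VI genes and 12 of 296 (4.05%) in type IV genes. None was found among the 6 coding exons of the network-forming genes.

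Collagen transcripts took up a smaller share of the RNA in the triple knockdown than in any other group. The 39 chains together made up 2.64, 2.64, 2.57 and 2.76% of normalised counts in the 50 nM scrambled libraries and 2.25, 2.44, 2.50, 2.48 and 2.60% in the Sec24B knockdown libraries. They made up 2.23, 2.59, 2.62, 2.19 and 2.20% in the 150 nM scrambled libraries and 1.46, 1.43, 1.52, 1.42 and 1.46% in the triple knockdown libraries. Every triple knockdown library lay below every other library. The Sec24B knockdown and the 50 nM scrambled libraries overlapped. This share is a description without a test.

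Type I collagen dominated the pool. Divided by the annotated exon length of each gene, Col1a1 averaged 28056 ± 1692 normalised counts per kilobase (SD, n = 4) in the 50 nM scrambled group and Col1a2 8614 ± 283. They were followed by Col4a2 (2705 ± 107), Col4a1 (2212 ± 98.9), Col5a2 (1681 ± 37.7), Col5a1 (1429.7 ± 30.0) and Col6a1 (1254 ± 55.4). On this scale Col3a1 (704 ± 41.0) and Col6a3 (688 ± 33.0) did not differ beyond their spread. The annotated length joins all isoforms of a gene, so it overstates the length of the transcript used in genes with alternative ends. Fibrillar chains held 82.8 to 83.8% of the collagen counts per kilobase with 50 nM scrambled siRNA, against 82.2 to 82.8% in the Sec24B knockdown. With 150 nM scrambled siRNA they held 80.7 to 82.7%, and in the triple knockdown 76.8 to 81.9%, with library 1 highest. The share of type VI chains was 4.20 to 4.76% with 50 nM scrambled siRNA, against 6.03 to 6.50% in the Sec24B knockdown, without overlap. It was 4.10 to 4.48% with 150 nM scrambled siRNA, against 5.03 to 5.90% in the triple knockdown, again without overlap. The type IV share was 10.46 to 11.03% with 50 nM scrambled siRNA and lower, at 9.45 to 10.20%, in the Sec24B knockdown. With 150 nM scrambled siRNA it was 11.45 to 13.00%, which overlapped the 11.25 to 15.19% of the triple knockdown.

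**Figure D1:**
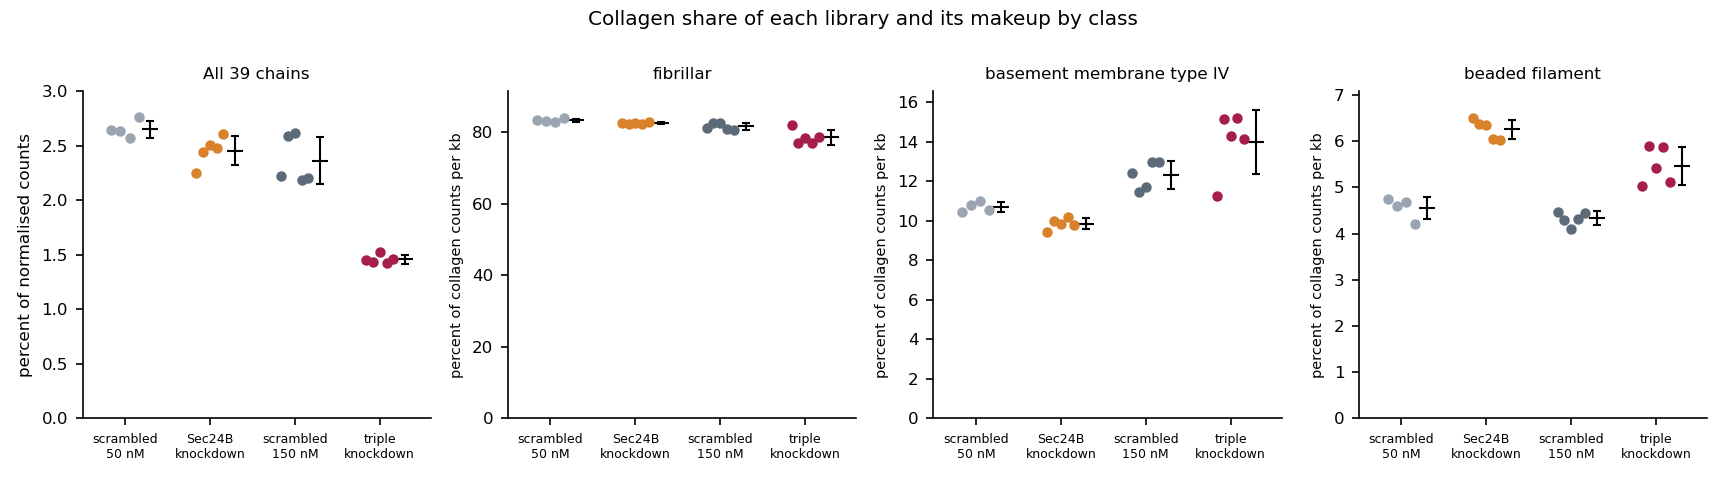
Collagen share of each library and its makeup by class. The left panel plots the percent of normalised counts held by all 39 chains, and the others the percent of collagen counts per kilobase held by fibrillar, type IV and type VI chains. Points are libraries of the 4 groups and bars the mean and SD (n = 4 or 5). The 5 triple knockdown libraries lie between 1.42 and 1.52% in the left panel, below all others.

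In the triple knockdown, 21 of the 39 chains were lower than with 150 nM scrambled siRNA and 0 were higher. Calls were made with limma on log2 of the normalised count plus 1 at a Benjamini-Hochberg adjusted p below 0.05 over 19635 genes. Over all genes tested, 17.2% were called lower and 16.8% higher. Among the 10750 genes that averaged at least 100 normalised counts in some group these shares were 25.8% and 24.9%, and of the 21 chains at that level 17 were lower and 0 higher. The median log2 fold change was -0.39 over the 39 chains, against 0.01 over all 19635 genes. Over the 21 chains averaging at least 100 it was -0.51, against 0.00 over the 10750 genes at that level. No chain was called higher by edgeR or DESeq2 on the recovered reads either, and each of them called 21 lower. At an unadjusted p below 0.05 limma had 0 chains higher and 23 lower.

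The Sec24B knockdown moved chains both ways. Against 50 nM scrambled siRNA, 7 chains were higher (Col2a1, Col3a1, Col5a3, Col6a1, Col6a2, Col11a1 and Col23a1) and 7 lower (Col4a1, Col4a2, Col4a5, Col5a2, Col7a1, Col12a1 and Col28a1). Over all genes, 7.53% were called higher and 7.08% lower, and among genes averaging at least 100 these were 10.4% and 11.8%. Of the 21 chains at that level, 6 were higher and 6 lower. Col5a3, 1 of the 6, reached 100 only in the Sec24B knockdown, so the count includes a chain let in by its own rise. Of the 19 chains that average at least 100 over all libraries, which leaves out Col5a3 and Col11a2, 5 were higher and 6 lower. The median was 0.04 over the 39 chains and -0.17 over the 21, of opposite sign. Without Sec24B library 1, the number of lower chains was 4 in place of 7.

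Lower chains were found among fibrillar and other classes alike after triple knockdown, while 4 of the 7 chains called higher after Sec24B knockdown were fibrillar. In the triple knockdown 7 of 11 fibrillar chains and 14 of 28 others were lower, with medians of -0.34 and -0.39. Among those averaging at least 100, these were 7 of 10 and 10 of 11, with medians of -0.42 and -0.53. In the Sec24B knockdown 4 fibrillar chains were higher and 1 lower, while of the others 3 were higher and 6 lower. Of the type IV chains 3 of 6 were lower in each knockdown and 0 higher. Of the FACIT chains 1 of 7 was lower after Sec24B and 2 after triple knockdown. Of the 3 network-forming chains 0 passed in the Sec24B knockdown and 1 was lower in the triple knockdown. These counts describe the classes and were not tested against each other.

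**Figure D2:**
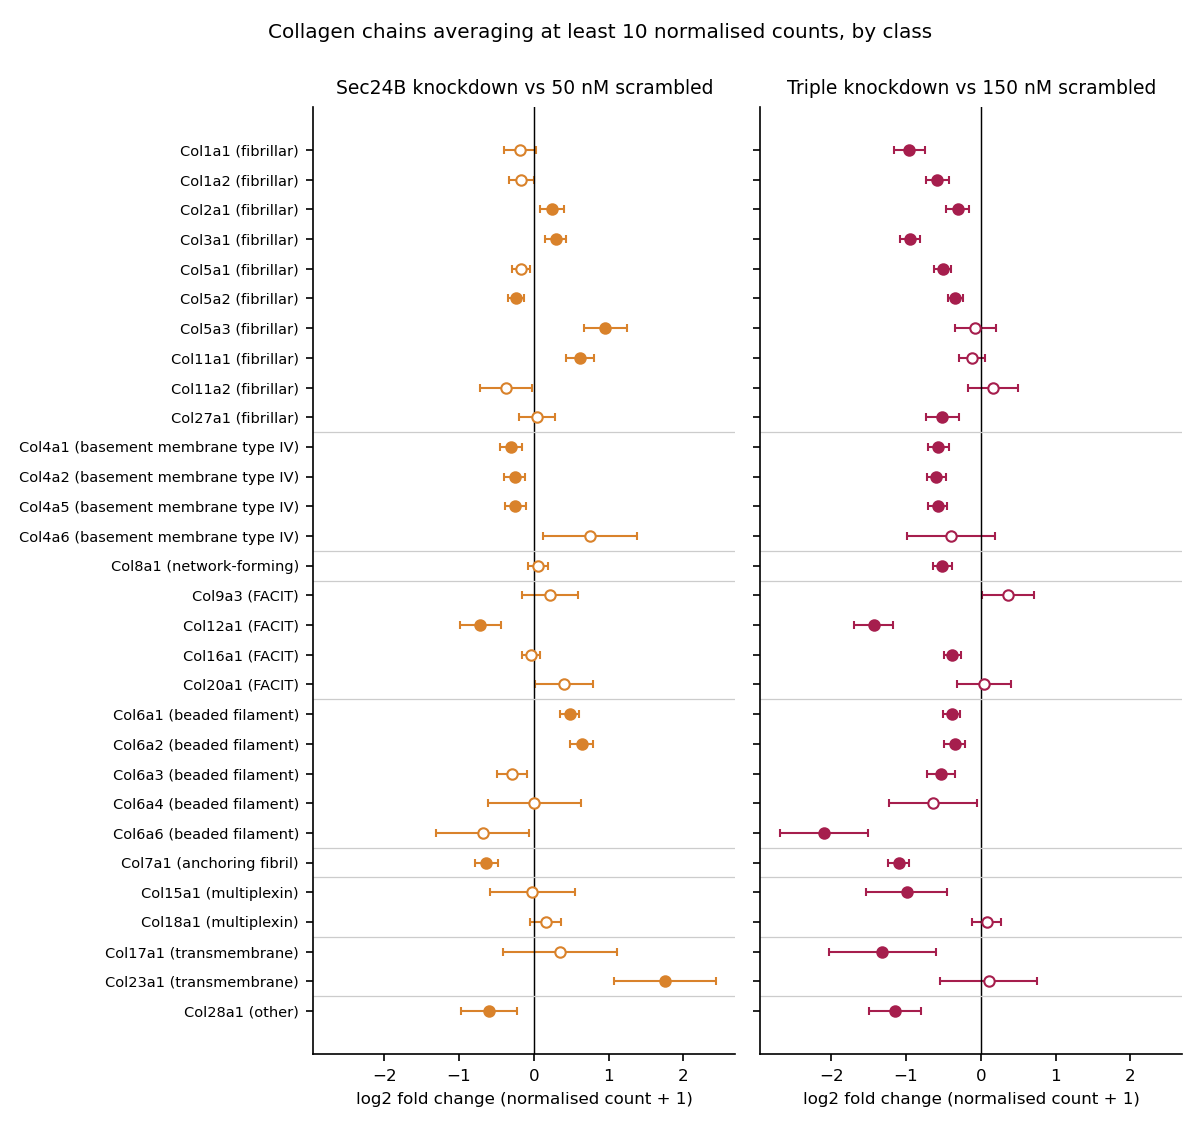
Log2 fold changes of the 30 chains averaging at least 10 normalised counts in at least 1 group, by class. The left panel compares the Sec24B knockdown with 50 nM and the right the triple knockdown with 150 nM scrambled siRNA. Points are limma estimates, bars their 95% intervals (1.96 SE), filled points passed at an adjusted p of 0.05. In the right panel no filled point lies above 0; in the left, filled points lie on both sides.

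Type I collagen, the main collagen of skin, tendon and bone, is built from the products of Col1a1 and Col1a2. Col1a1 (ENSMUSG00000001506, chr11:94936224-94953042; coordinates of genes are GRCm38) stood at 148193, 186573, 193545, 149972 and 147595 normalised counts in the 150 nM scrambled libraries and at 96394, 75263, 86759, 78043 and 88511 in the triple knockdown. The groups did not overlap, and the level was lower in the triple knockdown (log2 fold change -0.95 ± 0.10, adjusted p = 8.98e-08; ± after a log2 fold change is its SE). Libraries 2 and 3 of the 150 nM group were higher than the other 3. Col1a2 (ENSMUSG00000029661, chr6:4504814-4541544) went from 86316, 100526, 99703, 86113 and 87168 to 65889, 59577, 62005, 58086 and 61571, again without overlap (log2 fold change -0.58 ± 0.08, adjusted p = 2.89e-06). In the Sec24B knockdown Col1a1 stood at 146985, 158538, 167270, 162021 and 173739, below the 179770, 181115, 175275 and 200361 of the 50 nM scrambled libraries. All 5 knockdown libraries were lower, but the difference did not pass (log2 fold change -0.19 ± 0.11, adjusted p = 0.294; 95% interval -0.40 to 0.03). For Col1a2 the values were 105724, 106017, 104242 and 112191 with 50 nM scrambled siRNA, against 89099, 95707, 97089.9, 94892 and 100367 in the Sec24B knockdown. They did not overlap and did not pass (log2 fold change -0.17 ± 0.08, adjusted p = 0.21), though DESeq2 and limma-voom on the recovered reads called the difference (-0.17 with each).

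Type III collagen, a homotrimer of Col3a1 that shares fibrils with type I in skin and vessels, moved in opposite directions in the knockdowns. Col3a1 (ENSMUSG00000026043, chr1:45311538-45349706) stood at 7513, 6753, 6637 and 6755 normalised counts with 50 nM scrambled siRNA, against 8194, 8785, 8336, 8141 and 8859 in the Sec24B knockdown. Every knockdown library was higher (log2 fold change 0.29 ± 0.07, adjusted p = 0.00681). With 150 nM scrambled siRNA it stood at 6054, 7586, 6808, 5655 and 5798, and in the triple knockdown at 3421, 3369.9, 3443, 3105 and 3184. Here every knockdown library was lower (log2 fold change -0.94 ± 0.07, adjusted p = 8.56e-11). The difference between both effects was the largest among chains averaging at least 100 (triple minus Sec24B effect -1.23 ± 0.10, adjusted p = 4.87e-09).

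Type V collagen sets the number and width of type I fibrils. Its chain gene Col5a1 (ENSMUSG00000026837, chr2:27886425-28039514) went from 10782, 12152, 12014, 10422 and 10977 to 7800, 8112, 8055, 7850.4 and 7718 in the triple knockdown. Col5a2 (ENSMUSG00000026042, chr1:45374321-45503282) went from 13369.8, 15042, 14968, 13949 and 13874 to 11512, 11206, 11237, 11146 and 11144. Both were lower without overlap (log2 fold change -0.51 ± 0.06, adjusted p = 1.83e-07; log2 fold change -0.34 ± 0.05, adjusted p = 1.93e-05). In the Sec24B knockdown Col5a2 stood at 12812, 14012, 13716, 13615 and 14245 against 15983, 15895, 15942 and 16659, lower in all 5 libraries (log2 fold change -0.24 ± 0.06, adjusted p = 0.005); the call was lost with both scrambled groups pooled (-0.14). Col5a1 stood at 9713, 10959.9, 10981, 10759 and 11666 against 12162, 12083, 11845 and 12463, which also did not overlap but did not pass (log2 fold change -0.17 ± 0.06, adjusted p = 0.0672). It passed in 8 of 31 other settings, including without Sec24B library 5 (-0.20), without triple library 1 (-0.17), and with edgeR, DESeq2 and limma-voom (-0.17 with each). Col5a3 (ENSMUSG00000004098, chr9:20770050-20815067), also a chain of type V, was far less abundant. It rose in the Sec24B knockdown from 59.8, 61.8, 58.2 and 43.7 to 108, 107, 109, 108 and 110.3, with every knockdown library above every control (log2 fold change 0.96 ± 0.15, adjusted p = 6.55e-05). In the triple knockdown it stood at 51.5, 51.0, 39.9, 42.2 and 47.4 against 43.3, 52.4, 54.0, 37.0 and 59.8, which overlapped (log2 fold change -0.07 ± 0.14, adjusted p = 0.75; 95% interval -0.35 to 0.20).

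Type XI collagen, best known from cartilage fibrils, uses Col11a1 and Col11a2 together with a chain from Col2a1. Col11a1 (ENSMUSG00000027966, chr3:114030540-114220718) rose in the Sec24B knockdown from 921, 889.8, 887 and 770 to 1115, 1373, 1278, 1392 and 1521, without overlap (log2 fold change 0.62 ± 0.09, adjusted p = 4.81e-05). In the triple knockdown it stood at 586, 821, 821, 797 and 700.3 against 809, 871, 811, 758 and 751, which overlapped and did not pass (log2 fold change -0.11 ± 0.09, adjusted p = 0.359; 95% interval -0.28 to 0.06). Col11a2 (ENSMUSG00000024330, chr17:34039437-34066685) did not pass in either knockdown (-0.37 ± 0.18 and 0.16 ± 0.17). Its triple knockdown values of 167, 81.5, 64.8, 93.3 and 113 ranged widely, with library 1 highest, against 81.7, 81.9, 100.2, 82.4 and 94.9 with 150 nM scrambled siRNA. In the Sec24B knockdown Col11a2 stood at 82.4, 78.0, 76.8, 68.1 and 71.9 against 102, 81.7, 96.7 and 112, and passed as lower when triple libraries 1 and 5 were left out or when only the compared groups were fitted (-0.37 each).

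Col2a1 (ENSMUSG00000022483, chr15:97975602-98004695), the chain of type II collagen of cartilage, stood at 1424, 1418, 1522 and 1724 with 50 nM scrambled siRNA, against 1713, 1612, 1869, 1802 and 2026 in the Sec24B knockdown. The groups overlapped and the rise barely passed (log2 fold change 0.25 ± 0.08, adjusted p = 0.0481). It was lost in 19 of 31 other settings, with values of 0.20 to 0.26. Among them were leaving out 50 nM scrambled library 1, 2 or 3 or Sec24B library 1, 3, 4 or 5. Leaving out any 1 of the 150 nM scrambled libraries, or triple library 3 or 5, also lost it. The rest were edgeR and limma-voom on the recovered reads, TMM rescaling, a replicate block and a pseudocount of 0.1 (0.23 to 0.25). With the triple knockdown Col2a1 fell from 1297, 1455, 1494, 1416 and 1351 to 1367, 979.6, 1109, 1055 and 1175, where library 1 lay among the controls (log2 fold change -0.31 ± 0.08, adjusted p = 0.00314). The chondrocyte marker Sox9 averaged 364 normalised counts with 50 nM scrambled siRNA, 280 in the Sec24B knockdown, 412 with 150 nM scrambled siRNA and 299 in the triple knockdown. In the same order Matn3 averaged 11.4, 16.5, 22.8 and 17.1, and Comp 13.8, 30.8, 12.1 and 17.2. Sox9 was thus lower in the Sec24B knockdown, where Col2a1, Matn3 and Comp were higher on average, and a relation to Col2a1 was not tested. Col27a1 (ENSMUSG00000045672, chr4:63214004-63334991), a fibrillar chain of developing cartilage, stood at 97.1, 109.7, 123, 97.6 and 121 with 150 nM scrambled siRNA and was lower at 84.5, 89.0, 73.1, 70.7 and 66.0 in the triple knockdown, without overlap (log2 fold change -0.51 ± 0.11, adjusted p = 0.00107). With 50 nM scrambled siRNA Col27a1 stood at 119.5, 94.2, 112 and 99.2 and in the Sec24B knockdown at 107, 102, 97.2, 119.7 and 119, which overlapped (log2 fold change 0.04 ± 0.12, adjusted p = 0.894; 95% interval -0.20 to 0.28). The 11th fibrillar chain, Col24a1, was at 0 to 3.69 in all libraries.

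**Figure D3:**
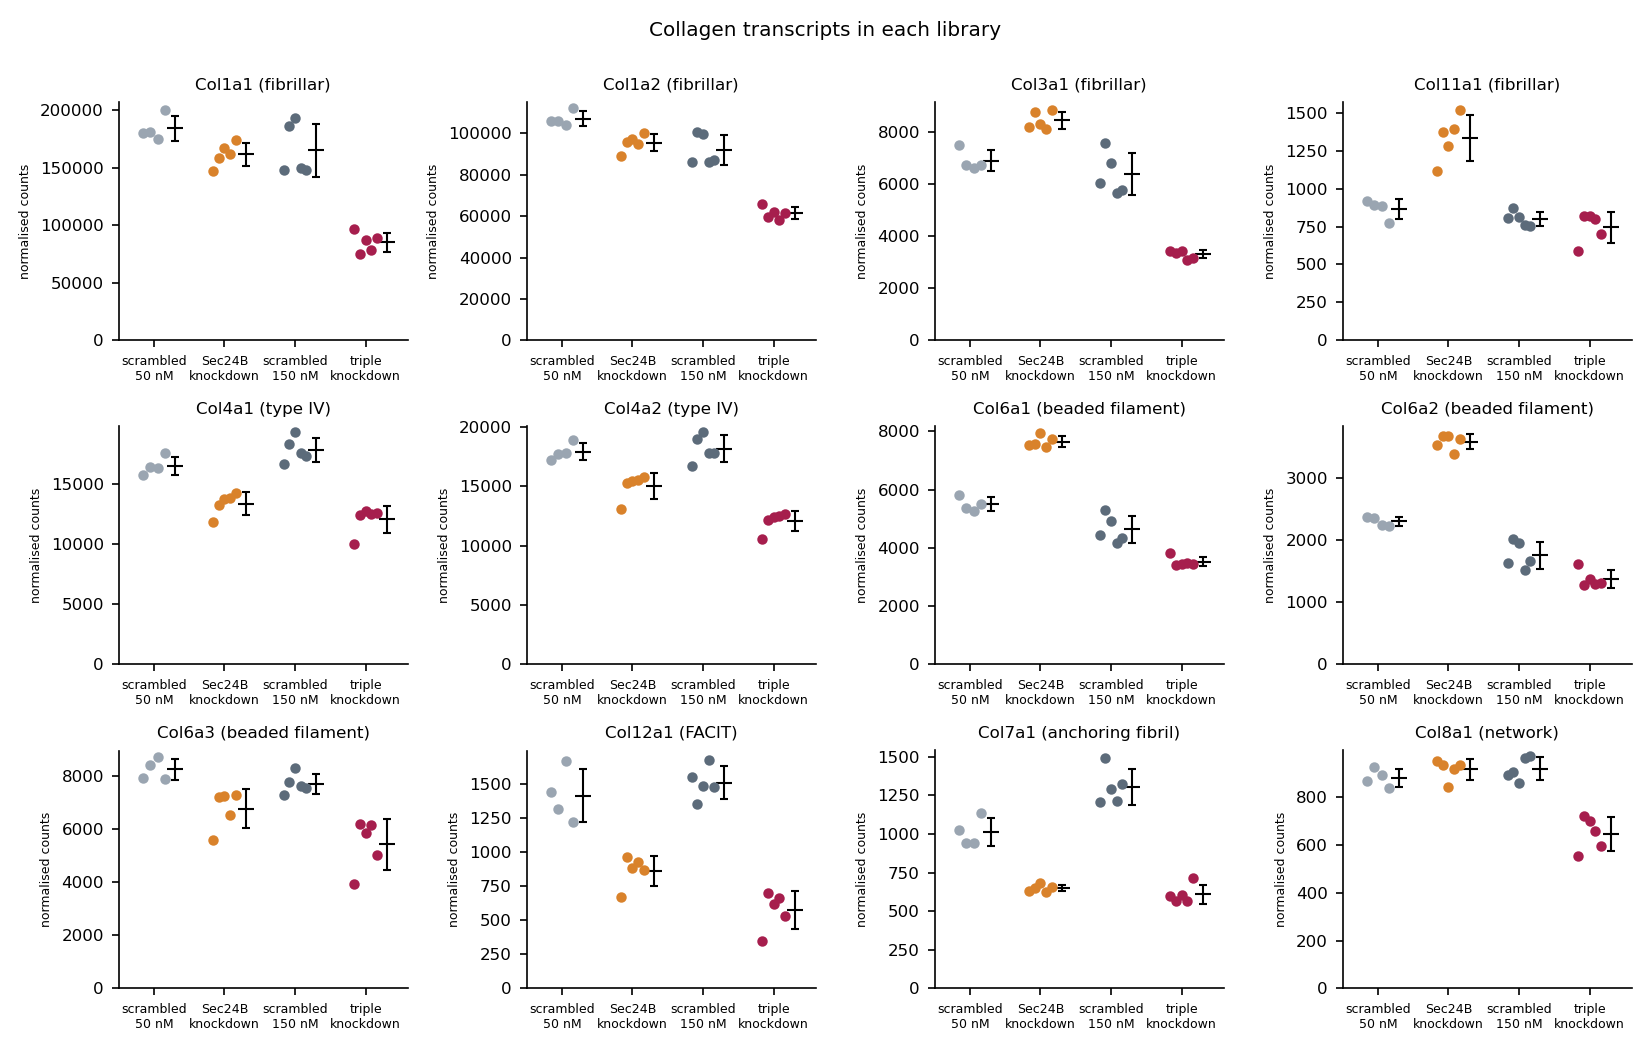
Normalised counts of 12 chains in each library. Points are the libraries of the 4 groups, horizontal marks their mean and bars the SD (n = 4 or 5). Col1a1, Col1a2 and Col3a1 are lowest in the triple knockdown, Col6a1, Col6a2 and Col11a1 highest in the Sec24B knockdown, and Col12a1 and Col7a1 are below the scrambled controls in both knockdowns.

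Type IV collagen forms the sheet of basement membranes, and its common trimer joins the products of Col4a1 and Col4a2. Both fell in both knockdowns. Col4a1 (ENSMUSG00000031502, chr8:11198423-11312826) went from 15774, 16379, 16342 and 17533 to 11791, 13238, 13706, 13818 and 14205 in the Sec24B knockdown and from 16629, 18278, 19301, 17542 and 17301 to 10001, 12406, 12774, 12479 and 12564 in the triple knockdown. Neither pair of groups overlapped (Sec24B log2 fold change -0.31 ± 0.08, adjusted p = 0.00611; triple log2 fold change -0.57 ± 0.07, adjusted p = 7.72e-07). Col4a2 (ENSMUSG00000031503, chr8:11312805-11449287) went from 17203, 17712, 17815 and 18885 to 13062, 15296, 15447, 15544 and 15749.9 and from 16678, 18953, 19582, 17809 and 17821 to 10571, 12141, 12395, 12482 and 12692. It too was lower in every knockdown library (Sec24B log2 fold change -0.26 ± 0.07, adjusted p = 0.0154; triple log2 fold change -0.59 ± 0.07, adjusted p = 1.81e-07). Without 50 nM scrambled library 4 (-0.23) or Sec24B library 1 (-0.21), the Sec24B call of Col4a2 was lost. These neighbours on chromosome 8 are read from opposite strands, and their RefSeq start sites lie 21 bases apart with each transcript running into the other's upstream sequence. Their exons overlap by 22 bases, so without strand information few reads could be counted for the wrong gene.

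Col4a5, whose chain pairs with those of Col4a3 and Col4a4 in kidney and of Col4a6 elsewhere, was lower in both knockdowns. Col4a5 (ENSMUSG00000031274, chrX:141475385-141689234) went from 2085, 2289.6, 2156 and 2096 to 1654, 1814, 1784, 1891 and 1948 in the Sec24B knockdown (log2 fold change -0.25 ± 0.07, adjusted p = 0.0203). After triple knockdown it went from 2069.7, 2049, 2127, 2076 and 2064 to 1189, 1581, 1463, 1525 and 1244 (log2 fold change -0.58 ± 0.07, adjusted p = 2.98e-07). There was no overlap in either comparison, and the Sec24B call was lost without 50 nM scrambled library 2 (-0.22) or Sec24B library 1 (-0.21). The head-to-head neighbour Col4a6, 1343 bases away between RefSeq start sites, averaged 8.02 ± 1.54 with 50 nM scrambled siRNA (SD, n = 4), 15.2 ± 5.66 in the Sec24B knockdown, 14.4 ± 3.96 with 150 nM scrambled siRNA, against 10.7 ± 3.19 in the triple knockdown (n = 5 each). It passed in neither knockdown, but passed as higher in the Sec24B knockdown without its library 2 (1.06), where it stood at 5.34 against 16.4 to 19.7 in the other 4. Col4a3 and Col4a4 stayed between 0 and 7.04 in all libraries.

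Col8a1, a short chain of the hexagonal networks under corneal and vascular endothelium, was the one network-forming chain above 100. Col8a1 (ENSMUSG00000068196, chr16:57624258-57754737) went from 891, 906, 860.4, 964 and 975 to 556, 721, 698, 660.1 and 596 in the triple knockdown, without overlap (log2 fold change -0.51 ± 0.07, adjusted p = 1.34e-06). With 50 nM scrambled siRNA it stood at 868, 926, 894 and 838 and in the Sec24B knockdown at 950.5, 936, 844, 917 and 935. These overlapped (log2 fold change 0.06 ± 0.07, adjusted p = 0.689; 95% interval -0.08 to 0.19). Its partner chain gene Col8a2 and the hypertrophic cartilage chain gene Col10a1 were at 0 to 6.52.

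FACIT chains sit on the surface of fibrils. Col12a1 (ENSMUSG00000032332, chr9:79598991-79718831), which decorates type I fibrils in tendon and muscle, had the largest fall of any chain above 100. It stood at 1441, 1319.6, 1670.1 and 1218 with 50 nM scrambled siRNA, against 671, 963, 884, 925 and 866 in the Sec24B knockdown (log2 fold change -0.71 ± 0.14, adjusted p = 0.00105). Under triple knockdown it went from 1549.6, 1349.7, 1488, 1679 and 1474 to 349.7, 699, 619.6, 665 and 532 (log2 fold change -1.43 ± 0.13, adjusted p = 7.6e-09). No knockdown library overlapped its controls. Libraries 1 and 5 of the triple knockdown and library 1 of the Sec24B knockdown were lowest. The same libraries had lower values for longer transcripts (rho -0.593, -0.380 and -0.540), and the annotated length of Col12a1 is 15228 bases. Among the controls, 50 nM scrambled library 4 (rho -0.419) and 150 nM scrambled library 2 (-0.269) had such a trend too. Each was the lowest of its group for Col12a1. Without triple libraries 1 and 5, the triple log2 fold change was -1.19. The parts of this trend and of the lower Sec24 transcripts of triple libraries 1 and 5 in the Col12a1 values were not tested. Col16a1 (ENSMUSG00000040690, chr4:130047840-130099283) fell in the triple knockdown from 2383, 2788, 2646, 2354 and 2531 to 2018, 1860.4, 1879, 1869 and 2127, without overlap (log2 fold change -0.38 ± 0.06, adjusted p = 1.47e-05). After Sec24B knockdown it stood at 2242, 2198, 2318, 2246 and 2258 against 2221, 2307, 2165 and 2567, within the range of the controls (log2 fold change -0.04 ± 0.06, adjusted p = 0.778; 95% interval -0.16 to 0.08). Col9a3 averaged 25.4 ± 5.63 and 32.7 ± 4.78 with 150 nM scrambled siRNA and in the triple knockdown, and Col20a1 34.9 ± 4.94 and 36.4 ± 8.08 (SD, n = 5); neither passed in a knockdown. Col14a1, Col19a1 and Col22a1 lay between 0 and 10.6 in all libraries.

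Type VI collagen is assembled from Col6a1, Col6a2 and another chain, most often Col6a3, and its transcripts parted in the Sec24B knockdown. Col6a1 (ENSMUSG00000001119, chr10:76708792-76726168) rose there from 5826, 5361, 5274 and 5512 to 7526, 7557, 7941, 7467 and 7747. Col6a2 (ENSMUSG00000020241, chr10:76595762-76623630) rose from 2382, 2355, 2244 and 2229 to 3534, 3679, 3684, 3393 and 3639. Every knockdown library of both was higher (log2 fold change 0.48 ± 0.06, adjusted p = 1.04e-05; log2 fold change 0.64 ± 0.08, adjusted p = 2.53e-06). Col6a3 (ENSMUSG00000048126, chr1:90765923-90843971) stood at 5586, 7185, 7246, 6535 and 7257, below the 7928, 8414, 8707 and 7889 of the controls in all 5 libraries, but did not pass (log2 fold change -0.29 ± 0.10, adjusted p = 0.0565). It passed as lower in 11 of 31 other settings, among them leaving out triple libraries 1, 2 or 4, TMM rescaling, and edgeR, DESeq2 and limma-voom on the recovered reads, at -0.28 to -0.30.

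Upon triple knockdown all of these type VI chains fell. Col6a1 went from 4429.7, 5309, 4908, 4174 and 4343 to 3813, 3426, 3449, 3481 and 3454 (log2 fold change -0.39 ± 0.06, adjusted p = 1.47e-05). Col6a2 went from 1627, 2016, 1958, 1518 and 1658 to 1618, 1284, 1380.4, 1288 and 1311, where triple library 1 lay among the controls (log2 fold change -0.35 ± 0.07, adjusted p = 0.000527). Col6a3 went from 7282, 7771, 8289, 7603 and 7523 to 3916, 6168, 5844, 6134 and 5004, lowest in libraries 1 and 5 (log2 fold change -0.53 ± 0.10, adjusted p = 0.000118). Col6a6, an alternative to Col6a3 at low level, had the largest called fall: it stood at 20.2, 14.7, 36.4, 26.5 and 31.3 with 150 nM scrambled siRNA, against 1.94, 6.52, 7.47, 4.91 and 5.93 in the triple knockdown (log2 fold change -2.10 ± 0.30, adjusted p = 5.7e-06). At this depth these levels rest on few reads per library. Col6a4 did not pass (0.01 ± 0.32 in the Sec24B and -0.64 ± 0.30 in the triple knockdown), but passed as lower in the triple knockdown without 150 nM scrambled library 1 (-0.86). Col6a5 stayed at 0 to 5.01.

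Col7a1 (ENSMUSG00000025650, chr9:108953586-108984875), the chain of the anchoring fibrils that tie the epidermis to the dermis, was lower in both knockdowns. It went from 1029, 941, 942 and 1134 to 633, 651, 682, 627 and 658 in the Sec24B knockdown (log2 fold change -0.63 ± 0.08, adjusted p = 2.29e-06). With the triple knockdown it went from 1208, 1494, 1291, 1215 and 1326 to 598, 567, 605, 567 and 714 (log2 fold change -1.10 ± 0.07, adjusted p = 1.15e-11). Neither comparison overlapped, and library 5 was the highest of the triple knockdown. The 2 knockdown groups reached similar levels from controls that differed.

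The multiplexin Col18a1 (ENSMUSG00000001435, chr10:77052178-77166548), from whose chain endostatin is cut, stood at 158, 149, 144 and 159 with 50 nM scrambled siRNA, against 146, 184, 176, 188 and 161 in the Sec24B knockdown. Its values were 143, 169, 149, 138 and 129 with 150 nM scrambled siRNA, against 130.2, 167, 174, 141 and 159 in the triple knockdown. Both comparisons overlapped and neither passed (Sec24B 95% interval -0.05 to 0.37; triple -0.11 to 0.28). The other multiplexin, Col15a1, averaged 19.8 ± 4.35 with 150 nM scrambled siRNA, against 9.33 ± 1.08 in the triple knockdown (SD, n = 5), and was lower there (log2 fold change -0.99 ± 0.28, adjusted p = 0.00672). The hemidesmosome chain gene Col17a1 averaged 13.2 ± 5.09 and 5.31 ± 3.81, lower on average with overlapping libraries (log2 fold change -1.31 ± 0.37, adjusted p = 0.00672). Col23a1, a transmembrane chain, rose in the Sec24B knockdown from 2.17, 5.89, 3.93 and 2.36 to 14.8, 18.2, 6.82, 15.3 and 16.7, the largest called rise, resting on few reads (log2 fold change 1.75 ± 0.35, adjusted p = 0.00106). Col28a1 averaged 49.8 ± 4.78 with 150 nM scrambled siRNA, and 22.3 ± 5.17 after triple knockdown, where it was lower (log2 fold change -1.15 ± 0.18, adjusted p = 1.82e-05). It averaged 51.0 ± 9.59 (n = 4) with 50 nM scrambled siRNA, and was lower at 33.3 ± 6.23 after Sec24B knockdown (log2 fold change -0.60 ± 0.19, adjusted p = 0.0329). The Sec24B call of Col28a1 was lost without 50 nM scrambled library 3 (-0.61) or 4 (-0.48) or Sec24B library 1 (-0.54), 3 (-0.60) or 5 (-0.54).

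The scrambled groups, labelled with different doses, differed in few chains. With 150 nM against 50 nM, 1 of the 39 chains was higher and 3 lower (1 without 50 nM scrambled library 1). Over all genes, 4.75% were higher and 4.1% lower, and among genes averaging at least 100 these were 7.03% and 6.33%. Of the 21 chains at that level 1 was higher and 3 lower. These small counts were not tested against the shares over all genes. Col7a1 was higher (log2 fold change 0.37 ± 0.08, adjusted p = 0.00243), and Col6a2 (log2 fold change -0.40 ± 0.08, adjusted p = 0.00136), Col6a1 (log2 fold change -0.25 ± 0.06, adjusted p = 0.0142) and Col5a2 (log2 fold change -0.18 ± 0.06, adjusted p = 0.046) were lower. Col7a1, Col6a2 and Col5a2 did not overlap between doses. For Col6a1, 150 nM scrambled library 2 lay just above the lowest 50 nM library. The Col5a2 call was lost in 16 of 30 other settings (-0.16 to -0.19), including without any 1 of the 50 nM scrambled libraries, of the 150 nM scrambled libraries 1, 4 or 5, of the Sec24B libraries 2 to 5, or of the triple libraries 2 to 4. The Col6a1 call was lost without 50 nM scrambled library 1 (-0.22). Col1a2 did not pass (-0.22 ± 0.08) but passed as lower without triple library 1 and in 5 other settings (-0.22). This comparison shares its 50 nM libraries with the Sec24B comparison and its 150 nM libraries with the triple comparison, so their values are not independent.

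The knockdown effects differed for 19 chains, all more negative in the triple knockdown, with 0 in the other direction. At an unadjusted p below 0.05 limma had 23 and 1, and edgeR called 19 and 0 and DESeq2 21 and 0. Over all genes, the difference (triple effect minus Sec24B effect, each against its own control) was called lower for 8.38% and higher for 7.44%. Among genes averaging at least 100 in some group these were 12.8% and 12.1%, and of the 21 chains at that level 16 were lower and 0 higher. Of the 11 fibrillar chains 8 differed, and of the 28 others 11. After Col3a1, the largest differences among chains averaging at least 100 over all libraries were in Col6a2 (-0.99 ± 0.11, adjusted p = 3.7e-07), Col6a1 (-0.87 ± 0.09, adjusted p = 1.4e-07) and Col1a1 (-0.77 ± 0.15, adjusted p = 0.00086). Col5a3, which averages less, differed by -1.03 ± 0.20 (adjusted p = 0.000882). Col5a3, Col11a1 and Col23a1 had risen in the Sec24B knockdown and did not pass in the triple knockdown. Col3a1, Col2a1, Col6a1 and Col6a2 had risen in the Sec24B knockdown and fell in the triple knockdown. No difference was shown for Col5a2 (-0.10 ± 0.08, 95% interval -0.25 to 0.05) or Col6a3 (-0.24 ± 0.14, -0.51 to 0.04). Col4a1 did not pass after adjustment (-0.26 ± 0.10), though its interval of -0.46 to -0.06 leaves out 0. It passed without Sec24B library 1 (-0.30) and with DESeq2 on the recovered reads (-0.26). The difference of Col4a5 was lost without 50 nM scrambled library 1 (-0.31), and that of Col27a1 without 50 nM scrambled library 2 (-0.50) or Sec24B library 5 (-0.52). That of Col6a6 was lost without 50 nM scrambled library 1 or 4, Sec24B library 2 or 150 nM scrambled library 3 or 5 (-1.37 to -1.26). It was also lost with triple libraries 1 and 5 both left out (-1.14). That of Col17a1 was lost without 50 nM scrambled library 2, Sec24B library 3 or 4, 150 nM scrambled library 2 or 3 or triple library 2 or 3 (-1.64 to -1.41). It was also lost with a replicate block (-1.62). Without triple library 3, Col11a2 passed in the other direction (0.68).

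Chains of 1 trimer or mixed fibril are built in together, and their ratio within a library does not depend on library scaling. Paired chains differ in annotated length, and the part of the libraries' length trend in these ratios was not tested. Col6a1/Col6a3 (4380 and 11963 bases) was highest of its group in Sec24B library 1, triple library 1 and 150 nM scrambled library 2. Col11a1/Col5a1 (12744 and 8490 bases) was lowest of its group in Sec24B library 1, triple library 1 and 50 nM scrambled library 4. The other libraries with this trend, triple library 5 among them, were not at these extremes. Of 9 ratios chosen, 7 had both chains at 20 or more normalised counts in every group and were compared in 3 contrasts, 21 tests in all, with exact two-sided permutation tests over libraries. The smallest p they allow is 0.00794. With Benjamini-Hochberg adjustment over the 21 tests, 10 passed.

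The balance of type I collagen shifted in the triple knockdown. The ratio of Col1a1 to Col1a2 was 1.72, 1.86, 1.94, 1.74 and 1.69 in the 150 nM scrambled libraries and 1.46, 1.26, 1.40, 1.34 and 1.44 in the triple knockdown. All 5 knockdown values were lower (difference -0.37, exact two-sided permutation p = 0.00794, adjusted p = 0.0185; differences of ratios are on the log2 scale). With the Sec24B knockdown the ratio stood at 1.65, 1.66, 1.72, 1.71 and 1.73 against 1.70, 1.71, 1.68 and 1.79, which overlapped (difference -0.02, exact two-sided permutation p = 0.381, adjusted p = 0.471).

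The ratio of Col1a1 to Col3a1 shifted in the Sec24B knockdown instead. It was 23.9, 26.8, 26.4 and 29.7 with 50 nM scrambled siRNA, against 17.9, 18.1, 20.1, 19.9 and 19.6 in the Sec24B knockdown, lower in all 5 libraries (difference -0.48, exact two-sided permutation p = 0.00794, adjusted p = 0.0185). After triple knockdown it was 28.2, 22.3, 25.2, 25.1 and 27.8 against 24.5, 24.6, 28.4, 26.5 and 25.5, and the groups overlapped (difference -0.01, exact two-sided permutation p = 0.881, adjusted p = 0.925).

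Type VI chains shifted in the Sec24B knockdown. The ratio of Col6a1 to Col6a3 went from 0.735, 0.637, 0.606 and 0.699 to 1.35, 1.05, 1.10, 1.14 and 1.07, higher in all 5 libraries (difference 0.77, exact two-sided permutation p = 0.00794, adjusted p = 0.0185). Under triple knockdown it was 0.974, 0.556, 0.59, 0.568 and 0.69, with library 1 alone near 1, against 0.608, 0.683, 0.592, 0.549 and 0.577 (difference 0.14, exact two-sided permutation p = 0.548, adjusted p = 0.605). Col6a1 to Col6a2 was lower in the Sec24B knockdown (difference -0.16, exact two-sided permutation p = 0.00794, adjusted p = 0.0185) and higher with 150 than with 50 nM scrambled siRNA (difference 0.15, exact two-sided permutation p = 0.0159, adjusted p = 0.0333).

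Of the minor fibril chains, Col11a1 gained on Col5a1 in both knockdowns. The log2 ratio went from -3.81 ± 0.14 to -3.02 ± 0.09 (SD, n = 4 and 5) in the Sec24B knockdown (difference 0.79, exact two-sided permutation p = 0.00794, adjusted p = 0.0185). Upon triple knockdown it went from -3.81 ± 0.06 to -3.42 ± 0.19 (SD, n = 5 each, difference 0.40, exact two-sided permutation p = 0.00794, adjusted p = 0.0185). Triple library 1, at -3.7327, lay only just above 150 nM scrambled library 1, at -3.7339. The other triple libraries stood at -3.46 to -3.29. Col5a1 to Col5a2 was lower in the triple knockdown (difference -0.17, exact two-sided permutation p = 0.00794, adjusted p = 0.0185). Col4a1 to Col4a2 moved little, by -0.05 in the Sec24B knockdown, 0.02 in the triple knockdown and 0.09 between the scrambled doses. The first and last passed (exact permutation p = 0.00794, adjusted p = 0.0185 each) and the second did not (exact permutation p = 0.317, adjusted p = 0.444). Leaving out any 1 of the Sec24B libraries raises the smallest p of that comparison to 0.0286, and then none of its 5 passing ratios passed and 4 of the 21 tests did.

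**Figure D4:**
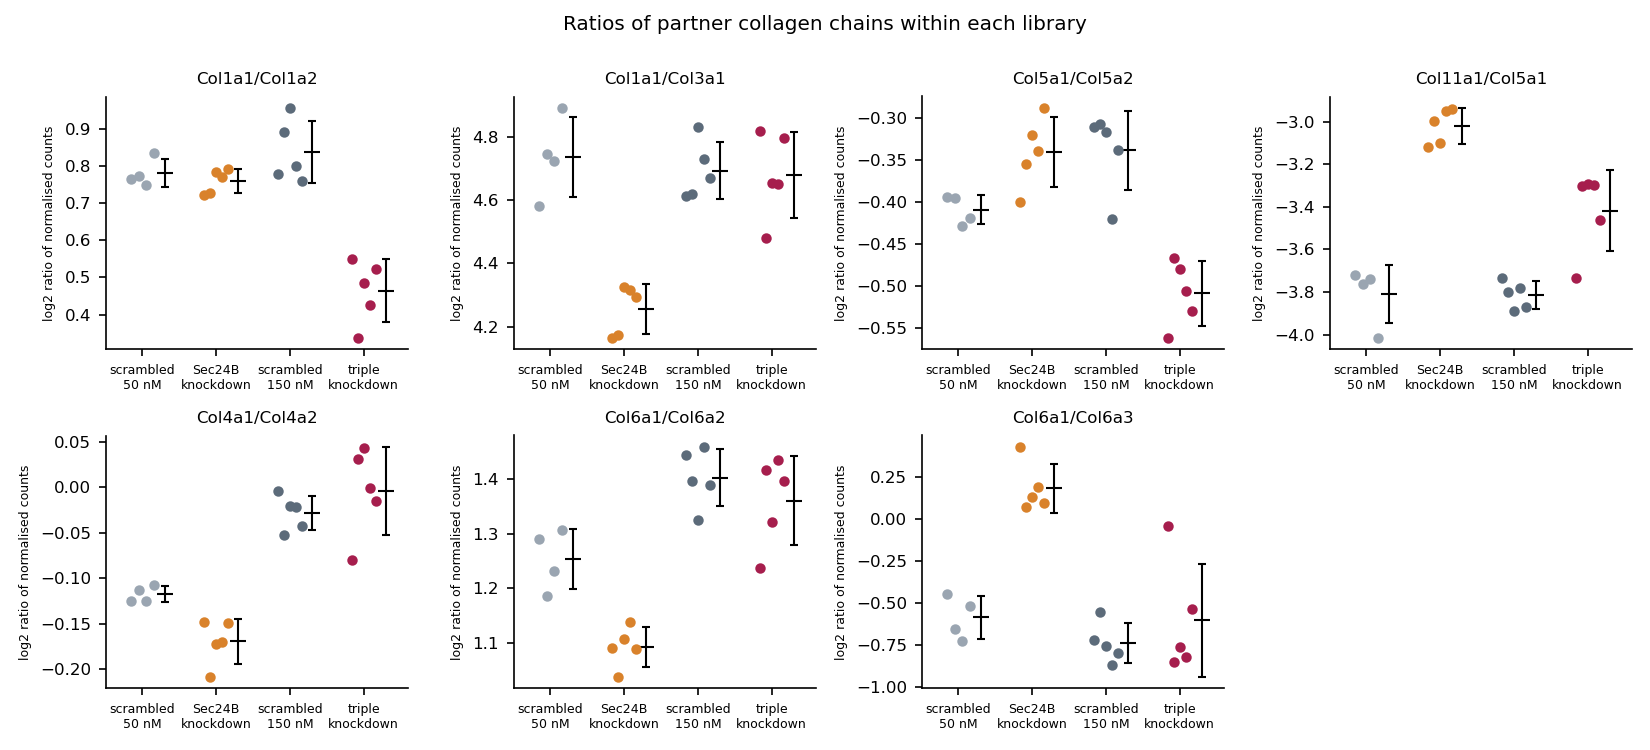
Log2 ratios of the normalised counts of partner chains in each library. Points are libraries of the 4 groups, horizontal marks the mean and bars the SD (n = 4 or 5); the axes do not start at 0. Col1a1/Col1a2 is lower in the triple knockdown (difference -0.37), and Col1a1/Col3a1 (-0.48) and Col6a1/Col6a3 (0.77) differ in the Sec24B knockdown.

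The length of the uninterrupted helix and of the whole chain was set beside the changes. Over the 21 chains averaging at least 100, Spearman's rho between the longest run of triplets and the log2 fold change was 0.34 for the Sec24B and 0.16 for the triple comparison. For the number of encoded residues it was -0.44 and -0.04. These describe 21 genes measured in the same libraries and are given without a test.

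Genes that modify, fold, export and cross-link collagen were a further list of 36 measured genes, of which 4 were higher and 7 lower in the Sec24B knockdown and 5 higher and 14 lower in the triple knockdown, with medians of 0.01 and -0.14. These are 11.1% higher and 19.4% lower, against 7.53% and 7.08% of all genes, for the Sec24B knockdown, and 13.9% and 38.9%, against 16.8% and 17.2%, for the triple knockdown. Among all genes averaging at least 100 the shares were 10.4% and 11.8%, and 24.9% and 25.8%, so the higher members lay near or below the background. Lox, the lysyl oxidase that starts cross-linking, fell in both knockdowns, from 11784 to 5357 and from 11341 to 3831 normalised counts on average (-1.14 ± 0.09, adjusted p = 9.03e-09; -1.58 ± 0.08, adjusted p = 2.95e-13). Bmp1, a procollagen C-proteinase (-0.67 ± 0.06, adjusted p = 7.54e-10), Loxl2 (-0.74 ± 0.07, adjusted p = 1.64e-08) and Loxl1 (-0.69 ± 0.07, adjusted p = 7.74e-08), further lysyl oxidases, and Sparc, a collagen-binding matrix protein (-0.69 ± 0.07, adjusted p = 3.37e-08), fell in the triple knockdown. Among the genes with the smallest adjusted p in the Sec24B knockdown, Sparc (-0.57 ± 0.07) and the prolyl 4-hydroxylase subunit P4ha1 (-0.43 ± 0.06) fell, while the alternative subunit P4ha3 (0.61 ± 0.07) and the prolyl 3-hydroxylase family member P3h3 (0.50 ± 0.07) rose. The list moved in both directions, with members of the hydroxylase families on each side.

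Of 29 measured regulators of collagen transcription, 1 was higher and 6 lower in the Sec24B knockdown, and 4 were higher and 14 lower in the triple knockdown. Against the same shares of all genes, these are 3.45% higher and 20.7% lower, and 13.8% higher and 48.3% lower, the higher ones again below the background. Atf4, a stress-induced transcription factor, averaged 5338 with 150 nM scrambled siRNA and rose after triple knockdown, to 10864 (1.02 ± 0.07, adjusted p = 1.02e-11). Creb3l1, which in mouse bone is known to drive Col1a1 and is itself activated after export from the endoplasmic reticulum, fell from 2077 to 1053 (-0.97 ± 0.07, adjusted p = 2.81e-11). Runx2, the osteoblast regulator (-0.96 ± 0.09, adjusted p = 1.29e-08), Tgfbr2, a receptor for TGF-beta (-0.57 ± 0.07, adjusted p = 2.67e-07), and Ccn2, a matricellular target of TGF-beta and YAP (-1.34 ± 0.16, adjusted p = 4.35e-07), fell as well. Ccn2 averaged 1407 with 50 nM and 3528 with 150 nM scrambled siRNA (1.34 ± 0.17, adjusted p = 9.33e-06), and its mean of 1398 in the triple knockdown was close to the 50 nM level. After Sec24B knockdown Wwtr1, which encodes TAZ (-0.59 ± 0.06, adjusted p = 1.59e-07), Ccn2 (-1.51 ± 0.17, adjusted p = 1.16e-06) and Creb3l1 (-0.35 ± 0.07, adjusted p = 0.00127) were lower. Smad7 (-0.30 ± 0.07) and Runx2 (-0.42 ± 0.10) were lower there as well. An osteoblast marker list with 5 of 7 genes measured, Runx2 among them, summed to 993 to 1160 with 50 nM scrambled siRNA, 714 to 823 in the Sec24B knockdown, 1078 to 1200 at the higher scrambled dose and 429 to 734 after triple knockdown. Its defining members Sp7 and Bglap averaged at most 3.77 in any group, and the part of this list in the collagen values was not tested.

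Collagen receptors and turnover genes counted 19 measured, of which 2 passed after Sec24B and 8 after triple knockdown, each of them as lower. These are 10.5% and 42.1% of the list. The first lies between the 7.08% of all genes and the 11.8% of genes averaging at least 100 called lower in that comparison, and the second is set against 17.2% and 25.8%. The integrin subunit Itgb1 (-0.30 ± 0.08, adjusted p = 0.00857) and the membrane collagenase Mmp14 (-0.27 ± 0.08, adjusted p = 0.0164) were the 2 that fell in the Sec24B knockdown. With the triple knockdown the collagen receptor Ddr1 (-0.51 ± 0.06, adjusted p = 3.81e-07), the endocytic receptor Mrc2 (-0.32 ± 0.05, adjusted p = 3.9e-05), Mmp14 (-0.43 ± 0.07, adjusted p = 4.63e-05), Itgb1 (-0.39 ± 0.07, adjusted p = 0.000131) and the integrin subunit Itga10 (-0.66 ± 0.20, adjusted p = 0.0135) had the smallest adjusted p.

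Over all 19 libraries the pattern of Col1a1 was most like that of Col1a2 (Pearson's r of log2 values 0.989), followed by the semaphorin gene Sema3f (0.981), Col5a1 (0.971), the sterol-response factor gene Srebf2 (0.970) and Olfml3 (0.970), out of 10433 genes averaging at least 100. The points share their libraries and group differences, and no test is attached.

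The sequence before the start site is shown for 4 chains that moved together or apart: Col6a1 and Col6a2, neighbours on chromosome 10 that both rose in the Sec24B knockdown, and Col1a2 and Col3a1, which both fell in the triple knockdown. RefSeq promoter entries (GRCm38.p6) were found for 31 of the 39 chains. The 250 bases upstream of the start are printed 5′ to 3′ on the gene's strand, in lower case, with matches on either strand in capitals to CCAAT (the CCAAT box), to GGGCGG (the GC box bound by SP1) or to TATAAA (the TATA box).

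Col6a1, chr10:76726045-76726294, minus strand: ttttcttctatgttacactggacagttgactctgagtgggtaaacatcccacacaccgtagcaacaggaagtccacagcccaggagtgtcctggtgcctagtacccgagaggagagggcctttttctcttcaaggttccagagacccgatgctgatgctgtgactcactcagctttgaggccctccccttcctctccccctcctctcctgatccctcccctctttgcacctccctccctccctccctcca

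Col6a2, chr10:76623631-76623880, minus strand: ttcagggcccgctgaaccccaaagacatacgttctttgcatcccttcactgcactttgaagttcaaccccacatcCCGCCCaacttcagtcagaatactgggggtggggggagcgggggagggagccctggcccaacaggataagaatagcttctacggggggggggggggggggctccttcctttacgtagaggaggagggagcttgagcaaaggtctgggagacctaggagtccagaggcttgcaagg

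Col1a2, chr6:4505368-4505617, plus strand: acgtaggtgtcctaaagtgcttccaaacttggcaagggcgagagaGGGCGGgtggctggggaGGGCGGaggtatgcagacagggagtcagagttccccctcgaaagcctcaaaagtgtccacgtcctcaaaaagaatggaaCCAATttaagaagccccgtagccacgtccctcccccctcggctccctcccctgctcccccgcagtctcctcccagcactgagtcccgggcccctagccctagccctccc

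Col3a1, chr1:45311288-45311537, plus strand: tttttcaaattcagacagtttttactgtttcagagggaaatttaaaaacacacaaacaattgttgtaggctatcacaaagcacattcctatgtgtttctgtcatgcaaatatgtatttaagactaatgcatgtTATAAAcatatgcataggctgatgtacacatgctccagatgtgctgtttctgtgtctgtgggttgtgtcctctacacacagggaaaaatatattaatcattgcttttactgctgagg

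Col1a2 held 1 match to the CCAAT box and 2 to the GC box, Col3a1 held 1 to the TATA box, Col6a2 held 1 to the GC box and Col6a1 held none. Col6a2 has another RefSeq promoter entry, with a start 226 bases away, whose upstream window held 3 matches to the GC box and is not printed. The RefSeq start of Col1a2 lies 804 bases from the gene start in the table and that of Col6a1 124 bases; the other 2 coincide. Among the 31 chains, 11 had the CCAAT box in an upstream window, 19 the GC box and 4 the TATA box. Counted by promoter, these chains have 33, of which 11, 20 and 4 held them in the same order. Of 32851 promoters of all genes, 33.8% held the first, 32.7% the second and 12.4% the last. The word TGATGNAA, the composite element bound by ATF4 with C/EBP partners, was in none of the 31 and in 3.45% of all promoters. The 4 words were searched on both strands. A match is only a run of letters, and its absence from this window says nothing about a factor's use of the gene.

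In the authors' deposited table, whose adjusted p-values were counted at 0.05, the Sec24B comparison had 7 chains higher and 10 lower, the triple comparison 0 and 21, the comparison of scrambled doses 1 and 4, and a direct comparison of the triple with the Sec24B knockdown 1 and 21.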

How the data were processed

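RNA-seq values of 19 libraries were read from 1 deposited table. The deposited values are signal that, as read from the values, equals gene counts divided by 1 factor per library: within a tolerance of 0.0055 every value deposited by the authors was a whole multiple of 1 step per library (0.736 to 1.638), and 100% of values came out as whole reads, 9101855 to 19709672 per library. The submitters' processing notes list the aligner TopHat2 2.0.8, the read trimmer Trimmomatic 0.27, FastQC 0.10.1, the suite Partek 6.6, and the human builds hg19 and GRCh37, while the gene IDs are mouse; the counting rule, its annotation and its use of strand are not given in the sources used here. Of 19716 gene IDs, 19666 were found in GENCODE M21 (GRCm38), 19479 at the same coordinates. Log2 fold changes and adjusted p-values in the authors' deposited table were only counted, and 0 columns of per-library values went unused.

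Genes at 1 or more in at least 4 libraries entered limma 3.58.1 under R 4.3.3. The fit used an intensity trend, log2 values with a pseudocount of 1, and 4 group means over all 19 libraries, with Benjamini-Hochberg adjustment over all 19635 genes tested. The values are normalised, so a count model was not the main test. Fold changes on this scale understate those of low genes, and all 39 chains passed the filter. Intervals are 1.96 SE. Ratios used exact permutation tests (Python 3.11.15, scipy 1.17.1). Alternatives were edgeR 4.0.16, DESeq2 1.42.0 and limma-voom on the recovered reads, other pseudocounts and filters, TMM rescaling, pooled controls, only the groups compared, a replicate block, each library left out and, added after seeing the data, triple knockdown libraries 1 and 5 left out. The fits were tested on simulated data. Replicate numbers come from the labels; deviations of same-numbered libraries correlated at -0.418 to 0.408, so the numbers were not taken to pair them.

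Chains averaging 100 or more in some group are given per library, those from 10 to 100 by group, the rest by range. Other genes are the up to 5 per list and comparison with the smallest adjusted p among those that passed, and the 5 most like Col1a1. The members, lists and rules were chosen with earlier results of these data known. Exons come from the transcript with the longest coding part, and each exon shown is the first of 54 bases that starts on a codon inside the longest triplet run.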

Additional observations from a re-analysis of the deposited data

Results flagged for a closer look

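In 12 of 120 groups of libraries tested (10%), 1 library stood apart from the rest of its group by Dixon's test, where chance gives about 1 in 20. Of these, 5 were triple knockdown library 1. It was lowest for Col4a1 (10001 normalised counts, others 12406 to 12774) and Col4a2 (10571, others 12141 to 12692). It was highest for Col5a2 (11512, others 11144 to 11237), Col6a1 (3813, others 3426 to 3481) and Col6a2 (1618, others 1284 to 1380). Triple knockdown library 5 was highest for Col7a1 (714, others 567 to 605). Sec24B library 1 was lowest for Col4a2 (13062, others 15296 to 15750), and Sec24B library 2 for Col4a6 (5.34, others 16.4 to 19.7). Among the 50 nM scrambled libraries, library 1 was highest for Col3a1 (7513, others 6637 to 6755), library 4 for Col5a2 (16659, others 15895 to 15983) and library 2 for Col4a6 (10.3, others 7.07 to 7.61). Library 2 was lowest for Col17a1 (5.15, others 10.6 to 11).

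The knockdown effects differed by limma's test of the difference for 19 chains (triple effect minus Sec24B effect, log2). Among fibrillar chains it was -0.77 for Col1a1, -0.41 for Col1a2, -0.56 for Col2a1, -1.23 for Col3a1, -0.34 for Col5a1, -1.03 for Col5a3, -0.73 for Col11a1 and -0.55 for Col27a1. Among type IV and network-forming chains it was -0.34 for Col4a2, -0.33 for Col4a5 and -0.57 for Col8a1. Among type VI chains it was -0.87 for Col6a1, -0.99 for Col6a2 and -1.41 for Col6a6, and among FACIT chains -0.72 for Col12a1 and -0.34 for Col16a1. It was -0.47 for Col7a1, -1.67 for Col17a1 and -1.64 for Col23a1.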

How the results depend on the processing

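No result reversed, and 47 of the 58 calls of single chains averaging at least 10 held in every setting that gave a value. Leaving out 1 library at a time, the chains lower in the triple knockdown numbered 21 to 22, those higher in the Sec24B knockdown 6 to 8, and those with a more negative triple effect 17 to 20. Chains lower in the Sec24B knockdown numbered 4 to 9 (4 without Sec24B library 1), those lower at the higher scrambled dose 1 to 4 (1 without 50 nM scrambled library 1), and those with a less negative triple effect 0 to 1 (1 without triple library 3). Ratio tests that passed numbered 4 to 11, with 4 whenever a Sec24B library was left out, since 4 against 4 allows no p below 0.0286. With a replicate block, 6 chains were higher and 8 lower in the Sec24B knockdown, 22 lower in the triple knockdown, 1 higher and 2 lower between doses, and 18 had a more negative triple effect; the libraries share only a number. In the Sec24B knockdown edgeR called 6 higher and 9 lower, and DESeq2 7 and 10. Without triple libraries 1 and 5, chosen after seeing the data, 7 were higher and 10 lower in the Sec24B knockdown, 21 lower in the triple knockdown and 18 more negative in the difference. Fits to only the compared groups or with pooled controls give no value for the difference. Chains under 100 rest on few reads, and the smallest difference detectable among them was not computed.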
